A study of Mus musculus with 4 samples.

Results

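The genes described here are the intracellular part of the TGF-beta and myostatin signalling chain in C2C12 cells: the Smad mediators Smad2, Smad3 and Smad4, and the inhibitors and co-repressors Smad7, Smurf1, Smurf2, Ski, Skil, Pmepa1 and Tgif1. They were chosen by name, as every probe in the scanner files that carries 1 of these 10 gene names or an older one (Tmepai for Pmepa1, Tgif for Tgif1). Of 27745 gene names on the array, 10 were taken, with 20 probes among 41174, and all 20 were bright enough to be tested.

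Myostatin, the product of Mstn and also called GDF8, is a secreted ligand of the TGF-beta family that limits muscle growth. It binds activin receptors, whose kinase phosphorylates Smad2 and Smad3, and these join Smad4 and enter the nucleus to regulate transcription. Smad7, the Smurf ligases, Ski, Skil, Pmepa1 and Tgif1 restrain the chain at the receptor, at the Smads or on chromatin, and several of them are transcribed in response to the signal itself, so that they form negative feedback loops.

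The GDF8 group was C2C12 cells, an immortalised mouse myoblast line that fuses into myotubes in low serum, given 20 nM recombinant mouse GDF8 at intervals of 24 h through 6 days of differentiation. The untreated group was the same line, differentiated for 6 days with nothing added. Both groups had been expanded in 10% fetal bovine serum, and the labels disagree on the horse serum that followed, with 2% in the growth protocol and 10% in the source names. RNA of 1 GDF8 and 1 untreated culture was hybridised together on each of 4 two-colour Agilent arrays, all on 1 slide. GDF8 RNA was labelled with Cy5 (red) for replicates 2 and 3 and with Cy3 (green) for replicates 1 and 4. The labels call these biological replicates and do not say how the cultures were kept apart, so the p-values measure the spread between these arrays, which may in part be technical. A single cell line was used, and its response need not be that of muscle in an animal.

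Each array held 43379 spots that were not controls. Between 0.745% and 12.1% of them were saturated in the GDF8 channel and between 4.11% and 11.1% in the untreated channel, and 63.3% to 78.8% of GDF8 spots and 67.1% to 77.5% of untreated spots were well above background. All 12 probes of 10 myoblast and myotube markers were well above background on all arrays of both groups. Ckm, muscle creatine kinase, had a log2 ratio of -0.93 ± 0.17 (limma adjusted p = 0.043) and fell, and no other probe of that list passed. Of the 12 probes, 10 were saturated in at least 1 channel, so their ratios are held by the scanner's ceiling and do not show that those markers were unchanged. The never-saturated ones were Ckm and Myf5, an early myogenic factor, at 0.031 ± 0.13. Whether the state of differentiation bears on the values below was not tested. Of markers of other cell types, those of endothelium (Pecam1, Cdh5), blood (Ptprc), fat (Adipoq, Plin1, Cfd), glia (Gfap) and bone (Ibsp) were too dim to be tested, and none of those tested passed the threshold. The probe of Mstn itself, which could detect only the cells' own transcript and not the added protein, was well above background on 0 of 4 arrays in GDF8 cells and 1 of 4 in untreated cells and was not tested.

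All ratios are GDF8 over untreated within an array, on the log2 scale, and levels are the log2 signal of each channel after normalisation. The ± of a ratio is the standard error from limma over 4 arrays, with a term for the dye, and adjusted p-values are limma's, by Benjamini-Hochberg over all 26567 probes tested, at a threshold of 0.05. Levels of different probes are not comparable, because each probe has its own brightness. A dye effect is the part of a probe's log2 ratio that changes sign when the dyes are exchanged.

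Of the 20 probes, 1 rose and 0 fell. Over all probes tested, 0.772% were called higher and 1.95% lower, and a count of 1 in 20 is too small to show that these genes were called more often than others. Without adjustment, 3 of the 20 had p under 0.05 with a higher value and 2 with a lower value, against 1453 higher (5.47%) and 1776 lower (6.68%) among all probes. The ratio was above 0 on all 4 arrays for 6 of the 20 probes, where 7.69% of all probes were, and below 0 on all 4 arrays for 2 of them, where 7.9% were. Among the 6 is Pmepa1 A_51_P449777, which was saturated in at least 1 channel. Of the 15 never-saturated probes, 5 were above 0 on all 4 arrays and 2 below. Of the 21661 never-saturated probes of all genes, 2009 were above 0 on all 4 arrays and 1994 below. The GDF8 levels lay wholly above the untreated levels for 2 of the 20 (2% of all probes) and wholly below for 1 (3.43%).

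**Figure D1:**
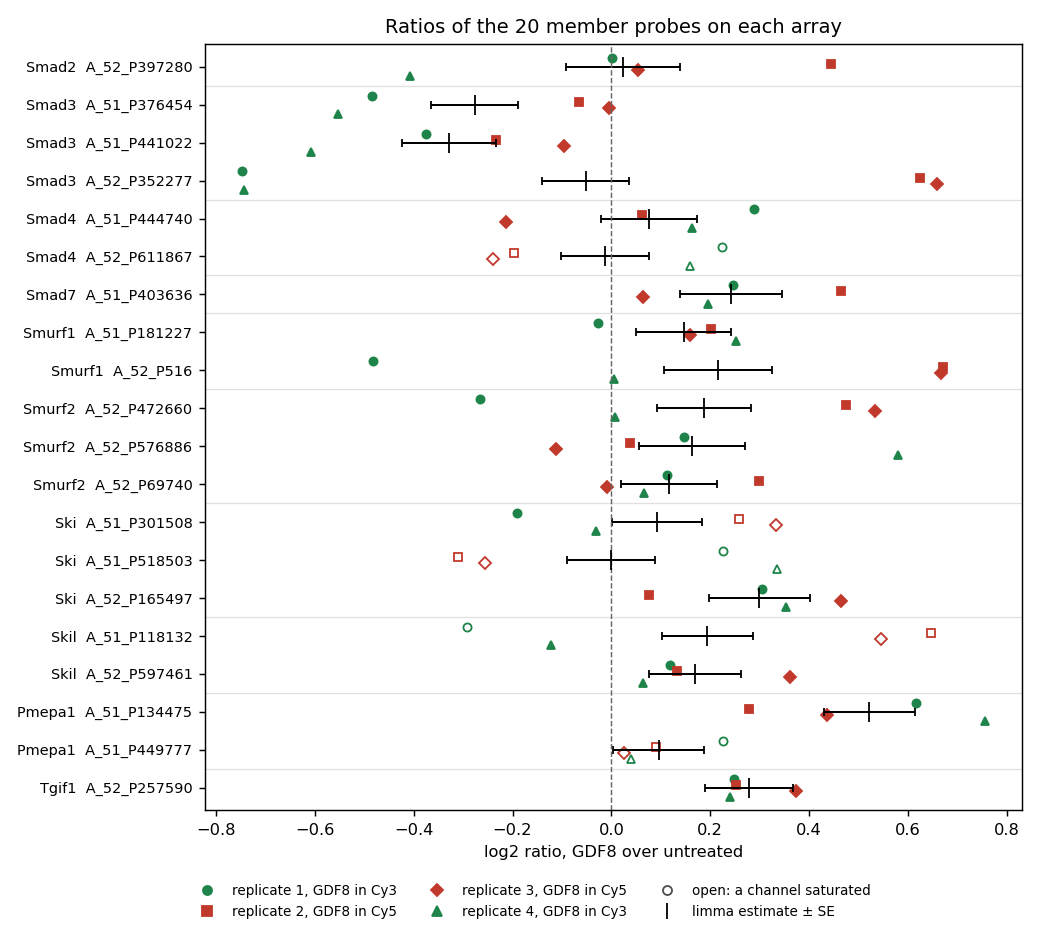
Log2 ratio of GDF8 over untreated (horizontal axis) for each of the 20 probes, grouped by role. Coloured points are single arrays, red where GDF8 was in Cy5 and green where it was in Cy3, open where a channel was saturated, and black bars are the limma estimate ± SE. The first Pmepa1 probe sits at 0.52 with all 4 arrays above 0, and 2 Smad3 probes have all 4 arrays below 0.

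The receptor-activated mediator Smad2 did not pass the test. Its log2 levels were 14.17, 14.33, 14.22 and 13.43 in GDF8 cells of replicates 1 to 4, against 14.16, 13.89, 14.17 and 13.84 in untreated cells. The groups overlapped, and replicate 4 alone was lower in GDF8 cells. The ratio was 0.023 ± 0.12 with a 95% interval of -0.25 to 0.30. Its direction was not stable: it was -0.079 without replicate 1 and -0.074 without replicate 2. Replicate 1 itself had a ratio of 0.0016. Without it, replicate 4, at -0.41, was the only array with GDF8 in Cy3.

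Smad3, the other receptor-activated mediator, which binds DNA directly, had 3 probes. For probe A_51_P441022 the log2 levels were 10.10, 10.19, 10.19 and 9.98 in GDF8 cells, against 10.47, 10.42, 10.29 and 10.58 in untreated cells. Every GDF8 level lay below every untreated level, but the ratio of -0.33 ± 0.095 did not pass after adjustment (limma adjusted p = 0.178). Probe A_51_P376454, designed on an expressed sequence tag, had ratios of -0.48, -0.065, -0.0045 and -0.55 on the 4 arrays, an estimate of -0.28 ± 0.089 and a limma adjusted p of 0.232. Its levels overlapped between the groups, and the arrays with GDF8 in Cy3 were the lower ones.

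The third Smad3 probe, A_52_P352277, carried the largest dye effect of the 20, at 0.69. Its ratios were -0.75, 0.62, 0.66 and -0.74, so the sign followed the dye orientation, and the estimate was -0.052 ± 0.088 with a 95% interval of -0.26 to 0.16. Its red signal, at 51494 to 58209 units, was close under the scanner's ceiling of 65261, although it was never marked as saturated. All 3 Smad3 probes thus had estimates below 0, of which none passed the test.

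Smad4, the common partner of the activated Smads, had 2 probes. The log2 levels of probe A_51_P444740 were 13.23, 12.66, 12.76 and 12.69 in GDF8 cells, against 12.94, 12.60, 12.97 and 12.53 in untreated cells. The groups overlapped, with a ratio of 0.076 ± 0.097 (limma adjusted p = 0.881), which was 0.0070 without replicate 2 and 0.14 without replicate 3. The second probe, A_52_P611867, was saturated in 3 of 4 GDF8 channels and 2 of 4 untreated channels, and gave -0.013 ± 0.089. Over the 6 probes of Smad2, Smad3 and Smad4, 2 estimates were above 0 and the median was -0.033, against 0.012 over all probes. Of the 5 that were never saturated, 2 were above 0 and 3 below, with a median of -0.052. The 3 below 0 were those of Smad3. The median of all never-saturated probes was 0.016.

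**Figure D2:**
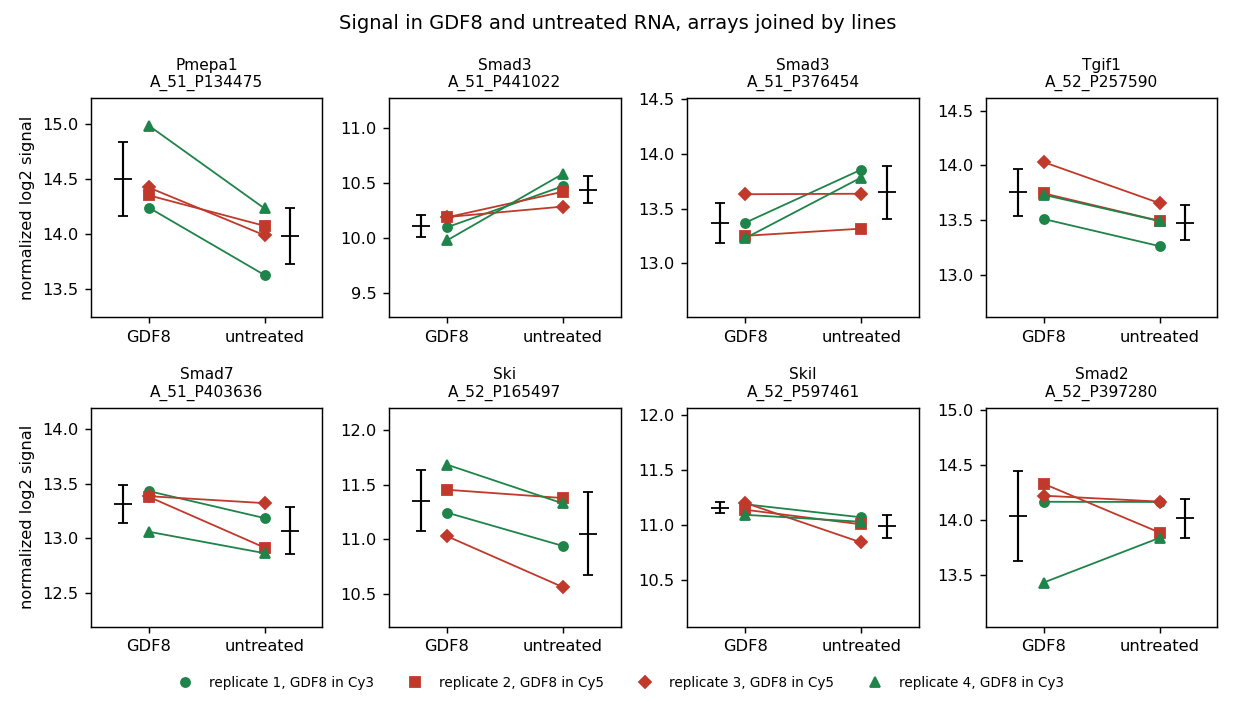
Normalised log2 signal level of selected probes (vertical axis), with the 4 GDF8 replicates to the left of the 4 untreated ones lines joining the pair of each array and black bars for the mean ± SD of each group. For Pmepa1 A_51_P134475 all GDF8 levels (14.24 to 14.99) lie above all untreated levels (13.62 to 14.23), and for Smad3 A_51_P441022 all lie below.

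Pmepa1 encodes a membrane protein that binds Smad2 and Smad3 and keeps them from the receptor, and it is a known transcriptional target of the pathway. Its probe A_51_P134475 was the single probe of the 20 that passed the test. The log2 levels were 14.24, 14.35, 14.42 and 14.99 in GDF8 cells, against 13.62, 14.07, 13.99 and 14.23 in untreated cells. All 4 GDF8 levels lay above all 4 untreated levels, and on each array the GDF8 channel was the higher, by 0.62, 0.28, 0.44 and 0.76. The estimate of 0.52 ± 0.092, or 1.44-fold with a 95% interval of 0.30 to 0.74 on the log2 scale, had a limma adjusted p of 0.0357 and ranked 557 of 26567 probes by p. This is RNA of whole cultures, in which more cells of a kind and more RNA per cell cannot be told apart.

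The call on this Pmepa1 probe was close to the threshold. Its estimate stayed between 0.48 and 0.56 under all alternatives in which it was measured. Its adjusted p, however, was 0.062, 0.14, 0.18 and 0.12 without replicates 1 to 4 in turn, and 0.087 on Agilent's processed signals. It was 0.43 when the pairing of the channels by array was ignored. The dye effect of the probe was -0.16, and no spot of it was saturated.

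The second Pmepa1 probe, A_51_P449777, gave ratios of 0.23, 0.091, 0.026 and 0.039 and an estimate of 0.095 ± 0.092 (limma adjusted p = 0.843; 0.049 without replicate 1). All 4 arrays were above 0, but it was saturated in 3 of 4 GDF8 channels and 2 of 4 untreated channels. On spots saturated in both channels the median ratio over all probes was 0.23, -0.31, -0.26 and 0.81 for replicates 1 to 4.

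Smad7, the inhibitory Smad that occupies the receptor and brings ligases to it, had a log2 level of 13.43, 13.38, 13.39 and 13.06 in GDF8 cells, against 13.19, 12.92, 13.32 and 12.87 in untreated cells. The GDF8 channel was higher on each array, by 0.063 to 0.46, and the groups overlapped. The estimate was 0.24 ± 0.10 (limma adjusted p = 0.414), and its dye effect was 0.021. It was 0.14 without replicate 2 and 0.34 without replicate 3.

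The ubiquitin ligases Smurf1 and Smurf2 mark Smads and receptors for degradation, in part through Smad7. Smurf1 had estimates of 0.15 ± 0.096 and 0.22 ± 0.11 on its 2 probes, and the sign of at least 1 array opposed the rest or was near 0 in each: probe A_52_P516 had ratios of -0.48, 0.67, 0.67 and 0.0062. For Smurf2, the estimates of probes A_52_P472660, A_52_P576886 and A_52_P69740 were 0.19 ± 0.096, 0.16 ± 0.11 and 0.12 ± 0.097. Single arrays moved these values: without replicate 4, Smurf1 had 0.076 on A_51_P181227 and 0.093 on A_52_P516, and the first 2 Smurf2 probes had 0.12 and 0.055. The last Smurf2 probe was 0.041 without replicate 2. Without replicate 1, Smurf1 A_52_P516 was 0.34 and Smurf2 A_52_P576886 was 0.27. All 5 estimates were above 0 and none passed the test, with limma adjusted p-values between 0.533 and 0.798.

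Ski and Skil are nuclear co-repressors that bind Smads and recruit histone deacetylases, and Skil is degraded and then re-expressed when the pathway is active. Ski had the log2 levels 11.24, 11.45, 11.03 and 11.68 in GDF8 cells on probe A_52_P165497, against 10.94, 11.38, 10.57 and 11.33 in untreated cells. The GDF8 channel was higher on all 4 arrays while the groups overlapped, and the estimate was 0.30 ± 0.10 (limma adjusted p = 0.269). Its other probes were bright. A_51_P301508 had 0.093 ± 0.091 with 2 of 4 GDF8 channels saturated (0.053 without replicate 4), and A_51_P518503 was saturated in 3 of 4 GDF8 channels and all 4 untreated channels, so its ratio reflects the ceiling and is not read as a fold.

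Skil probe A_52_P597461 had log2 levels of 11.19, 11.14, 11.20 and 11.09 in GDF8 cells, against 10.84 to 11.07 in untreated cells, lowest in replicate 3. All 4 GDF8 levels lay above all 4 untreated levels, with a small estimate of 0.17 ± 0.093 (limma adjusted p = 0.591), which was 0.11 without replicate 3. The brighter Skil probe, A_51_P118132, had ratios of -0.29, 0.65, 0.54 and -0.12, with the sign following the dye. Its estimate of 0.19 ± 0.092 is limited by saturation, in 2 of 4 GDF8 channels and 1 of 4 untreated channels, which left 1 array without a saturated spot.

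Tgif1 is a homeobox repressor that competes with co-activators for Smads. Its log2 levels were 13.51, 13.75, 14.03 and 13.73 in GDF8 cells, against 13.26, 13.49, 13.66 and 13.49 in untreated cells. The GDF8 channel was higher on all 4 arrays, by 0.25, 0.25, 0.37 and 0.24, and the groups overlapped. The estimate of 0.28 ± 0.090 had a limma adjusted p of 0.234.

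Over the 14 probes of the 7 inhibitor and co-repressor genes, 13 estimates were above 0 with a median of 0.18, and over all probes tested 53.7% were above 0 with a median of 0.012. Of the 10 of these probes that were never saturated, 10 were above 0, with a median of 0.20 against 0.016 for the 21661 never-saturated probes. These are descriptive counts of probes, several of which share a gene, and carry no test.

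**Figure D3:**
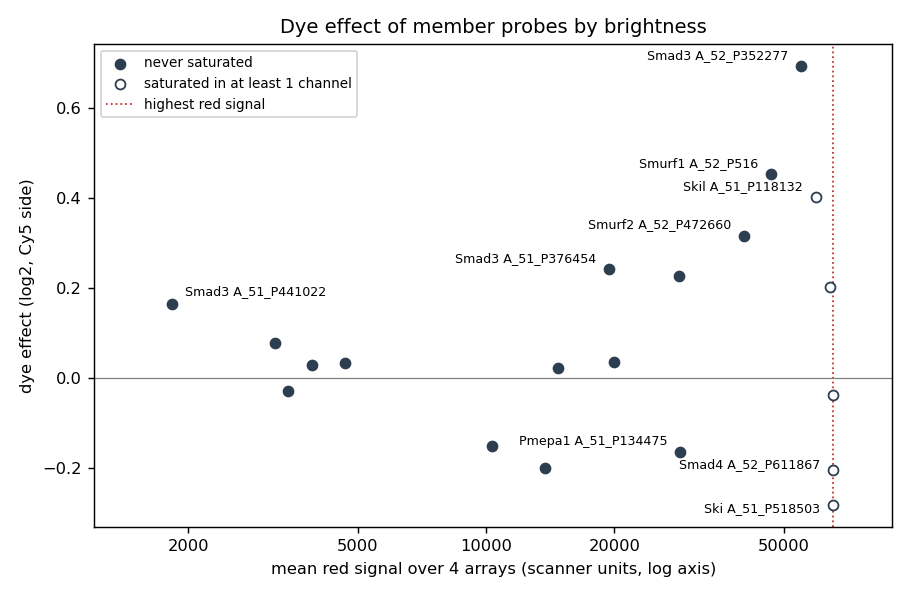
Log2 dye effect of each of the 20 probes (vertical axis) against its mean raw red signal in scanner units (horizontal axis), with the saturation state marked. Dye effects reached 0.69 on probes with a mean red signal over 40000 and stayed within 0.24 on the dimmer ones.

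The size of the dye effect differed with brightness. The 8 probes with a mean red signal over 40000 had dye effects of 0.037 to 0.69 in size, with a median of 0.30, beside 0.31 for the 6151 probes of all genes in that range. The other 12 had a median of 0.11, beside 0.10 for the 20416 dimmer probes. The 5 probes saturated in at least 1 channel were all among the 8 bright ones. Their dye effects are limited by the scanner's ceiling and do not measure how far the dye moved a ratio. The split at 40000 was chosen with the values in view and carries no test.

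Promoter windows from RefSeq (GRCm38.p6) were examined for 5 of these genes, Smad3, Smurf1, Smurf2, Ski and Tgif1. Each window is the 250 bases before the start of transcription. Promoters of the other genes were not examined, and nothing is read from their absence. The letters CAGAC, or GTCTG on the other strand, hold the bases that the DNA-binding domain of Smad3 and Smad4 contacts. They occur in 42.2% of 32851 mouse promoter windows of that length, so that a match is common, and the palindrome GTCTAGAC occurs in 0.167%. The windows of Smad3 and Tgif1 are printed as examples, with any CAGAC or GTCTG in capitals. Smad3 had estimates below 0 on all its probes and Tgif1 a ratio above 0 on every array. Ski also had a probe with ratios above 0 on every array, and its window is not printed. The printed windows are therefore not a comparison of genes that fell with genes that rose. Smad3 lies at chr9:63757995-63758244 on the minus strand and Tgif1 at chr17:70853533-70853782 on the minus strand, both 5′ to 3′ in the direction of transcription.
Smad3: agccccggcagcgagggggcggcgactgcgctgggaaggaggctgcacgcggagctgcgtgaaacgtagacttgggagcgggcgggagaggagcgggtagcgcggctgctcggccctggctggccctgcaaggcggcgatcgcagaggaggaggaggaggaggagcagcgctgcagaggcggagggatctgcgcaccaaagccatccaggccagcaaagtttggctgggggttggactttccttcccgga
Tgif1: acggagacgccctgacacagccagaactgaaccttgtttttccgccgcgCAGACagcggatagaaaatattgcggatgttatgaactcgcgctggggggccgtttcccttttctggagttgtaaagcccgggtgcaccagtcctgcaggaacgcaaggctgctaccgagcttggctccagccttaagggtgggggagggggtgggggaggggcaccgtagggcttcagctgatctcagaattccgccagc
The Smad3 window has 0 matches and this Tgif1 window 1. Other Tgif1 start sites have windows with 2, 0, 1 and 0 matches, Smurf1 has 2, Smurf2 has 1 and Ski has 0. No window holds GTCTAGAC. These matches describe letters only, and no binding was measured.

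Other genes of the pathway were grouped by role. In none of the 6 lists did a probe pass the threshold in either direction, in limma or under any of the alternatives, while 205 and 519 probes of all genes were called higher and lower. At p under 0.05 without adjustment, the target genes held 4 higher and 0 lower probes, the anchors and transport factors 4 higher and 2 lower, and the receptors and the ligases 0 higher and 1 lower each. The BMP-side Smads and the co-regulators held 0 of either. Among all probes tested, 5.47% were higher and 6.68% lower at that level, so counts of this size in lists of 6 to 34 probes are read as descriptions.

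**Figure D4:**
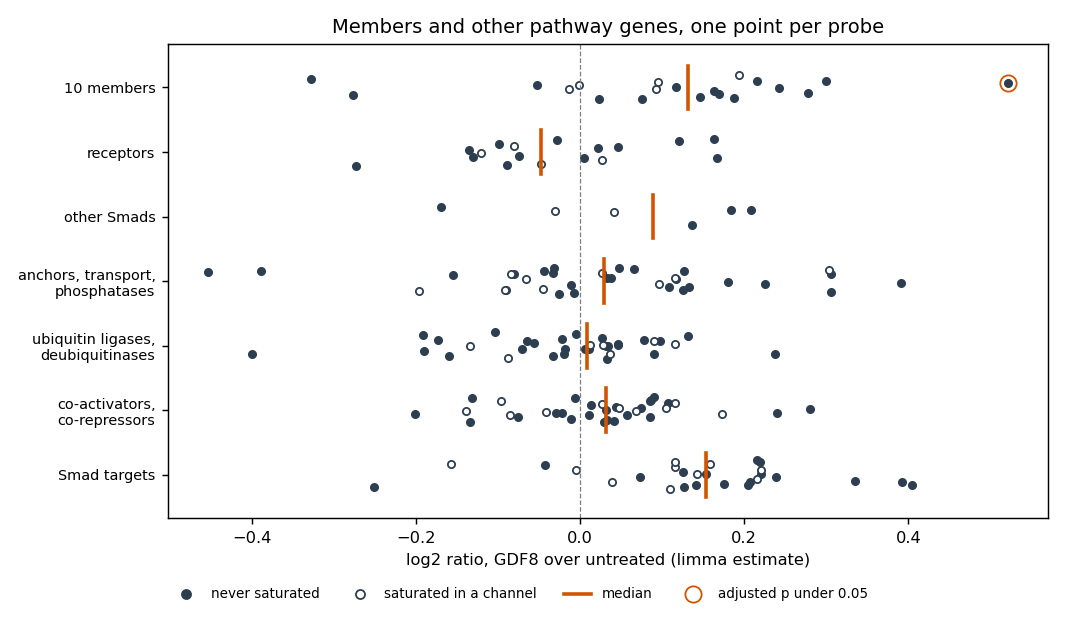
Log2 ratios of GDF8 over untreated (horizontal axis) for the probes of the 10 genes (top) and every tested probe in 6 lists of pathway genes, with open points for probes saturated in a channel, a line at each median and a ring around a probe past the threshold. The medians of the 6 lists run from -0.048 for receptors to 0.15 for Smad target genes, beside 0.012 for all probes.

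Receptors, in 17 probes of 11 genes, had a median of -0.048. The lowest p was that of Acvr1b, the type I activin receptor ALK4, at -0.27 ± 0.098 (limma adjusted p = 0.300). Tgfbr2 and Bmpr1b, of the TGF-beta and BMP receptors, had 0.16 and 0.17, and a second Tgfbr2 probe was saturated in 3 of 4 GDF8 and 4 of 4 untreated channels. The BMP-side Smads and the inhibitory Smad6, in 6 probes of 3 genes, had a median of 0.089, with 0.21 ± 0.093 for Smad6 and estimates of 0.18, -0.17 and -0.031 on the 3 probes of Smad5. Smad1 had 0.14, and 0.042 on a probe saturated in 2 of 4 channels of each group.

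Smad anchors, nuclear transport factors and phosphatases, in 34 probes of 15 genes, had a median of 0.030. Ldlrad4, which keeps Smads from the receptor and is the closest relative of Pmepa1 by family, had ratios of 0.42, 0.31, 0.26 and 0.57, above 0 on all arrays, and an estimate of 0.39 ± 0.091 (limma adjusted p = 0.089), with 0.31 ± 0.099 on its second probe. Ipo7, an importin that carries Smads into the nucleus, had -0.45 ± 0.10 (limma adjusted p = 0.086) and -0.39, -0.16 and -0.090 on its other probes. The arrays disagreed in sign on some of these. The probe at -0.39 had ratios of -0.77, 0.71, -0.13 and -1.37 and a dye effect of 0.68. The probe at -0.090 had ratios of -0.60, -0.51, 0.15 and 0.61. Tgfb1i1, also called Hic-5, had 0.31 ± 0.088 (limma adjusted p = 0.176), and 0.30 and 0.23 on its other probes. On the probe at 0.30 the ratios were -0.15, 0.72, 0.54 and 0.10, with a dye effect of 0.33. It was saturated in 1 of 4 GDF8 channels. Those at 0.31 and 0.23 were above 0 on all 4 arrays.

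Ubiquitin ligases and deubiquitinases, in 34 probes of 13 genes, had a median of 0.0084. Wwp2, a ligase of the same family as the Smurfs, had -0.40 ± 0.099 on the probe with the lowest p (limma adjusted p = 0.114), and between -0.087 and 0.098 on the other 4. Wwp1 had 0.24 on 1 probe, whose ratios of 0.56, -0.29, -0.25 and 0.94 followed the dye, and 0.046, 0.034 and 0.0055 on the other 3. Nedd4l had -0.19 on both its probes, and the arrays disagreed in sign on each (limma adjusted p = 0.512 and 0.704). The co-activators and co-repressors, in 34 probes of 17 genes, had a median of 0.032, and the estimates of its genes varied between probes. Ctbp2 had 0.24 on the probe of lowest p and 0.047 on the other. Ncor1 had -0.20 and -0.13 on 2 probes and 0.027 to 0.091 on the other 5. The single Tgif2 probe, saturated in 1 of 4 GDF8 channels, had 0.17 with ratios of -0.20, 0.56, 0.49 and -0.16, whose sign followed the dye.

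Smad target genes outside the 10 genes, in 27 probes of 18 genes, had the highest list median, at 0.15 over all probes and 0.20 over those never saturated. Spsb1, a ligase adaptor that is itself a target of TGF-beta, had 0.39 ± 0.096 (limma adjusted p = 0.107), and 0.22 on its second tested probe. Hmga2, a chromatin protein, had 0.34 ± 0.12, and 0.22 and 0.15 on its other probes. Neither passed, and the median is a description, since the list was chosen with earlier results known.

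Outside the pathway, the 5 genes whose 4 ratios lay nearest to those of Pmepa1 A_51_P134475, among 15085 genes with 1 never-saturated probe each, were H3c1, Lmo1, Rnf165, Tg and Stard4. The root mean square differences in log2 ratio over the 4 arrays were 0.074, 0.083, 0.095, 0.10 and 0.10.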

How the data were processed

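The members and gene lists were chosen with earlier results of these data known. The deposited scanner files hold spot intensity per channel, a log10 ratio of red over green and other flags (saturation, outlier, well above background), per the file headers; the series' design text names Agilent Feature Extraction 9.1.1.1 and GeneSpring GX 12. The authors' deposited table holds log2 ratios, which equalled the turned log2 ratio of processed signals in 100% of 40929 single-spot probes (tolerance 0.001) and were not centred (medians 0.14, -0.093, -0.11 and 0.092).

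Mean signals were corrected by normexp (offset 50) against the median local background, loess-normalised within arrays with control spots at weight 0, and turned to GDF8 over untreated, in limma 3.58.1 under R 4.3.3. Spots marked as outliers were left out, so 646 probes lacked a value on 1 or more arrays, and spots of 1 probe were averaged. Probes well above background on all 4 arrays of either group passed the filter (26925), and 26567 had a fit. Channel levels are loess and Aquantile values. The fit was tested on simulated data. Names came from accessions for 24375 probes, symbols for 6301 and synonyms for 2416, and 8082 kept the file's name. The named genes were every probe of the 10 genes, up to 3 genes of lowest p per pathway list, Mstn, the muscle markers and the 5 nearest patterns. A result that this rule would name is not reported here. The pairing of channels on an array is the block. The smallest two-sided p of an exact sign-change test on 4 arrays is 0.125. The number of arrays limits the precision.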

Additional observations from a re-analysis of the deposited data

Results flagged for a closer look

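The Tgif1 probe A_52_P257590 had a log2 ratio of 0.37 on the array of replicate 3, against 0.24 to 0.25 on the other arrays. The gap took 0.913 of the range of the 4 arrays, above Dixon's 95% critical value for 4 samples, which chance exceeds in about 1 of 20 groups, and 20 probes were examined. All 4 ratios lay above 0.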

How the results depend on the processing

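The count of member probes called higher was 1 in limma, and it stayed 1 with an offset of 10, with no filter on dim probes, with saturated spots left out, with probes never saturated and with the brightest never-saturated probe of each gene. It was 0 on Agilent's processed signals, with median centring, without the dye term, with the brightest probe of a gene, on the authors' deposited log2 table, with a fold over 1.6 and by the methods' t-test at p and fold or after Benjamini-Hochberg. It was 0 to 0 with each replicate left out. Without the replicate block, that is without the pairing of channels by array, it was 0, and over all probes 64 were called higher and 289 lower, against 205 and 519 with the block. Over all probes, 90 were called higher with no dye term, 84 with a fold over 1.6, 87 by the methods' t-test at p and fold and 25 after Benjamini-Hochberg (76 lower). Leaving out 1 replicate gave 33 to 161 higher and 201 to 443 lower, lowest without replicate 2. Pmepa1 A_51_P134475 kept an estimate of 0.48 to 0.56, with adjusted p from 0.033 to 0.67. No other member probe was called under any alternative, and the pathway lists had 0 calls in all of them. With a replicate left out, Smad2 ranged from -0.079 (without replicate 1; -0.074 without 2) to 0.13 and turned direction. The ratios of Smad4 A_52_P611867, -0.030 to 0.0028 (without replicate 4), and Ski A_51_P518503, -0.029 to 0.026 (without replicate 1; 0.012 without 2), also crossed 0, but most of their channels were saturated and no direction is read from them. The causes were not tested. With saturated spots left out, 5 probes kept 2 arrays or fewer and gave no value. Saturation limits the ratios of the brightest probes, and 4 arrays on 1 slide limit the rest.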

Other observations

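The authors' deposited table gives the second, saturated Pmepa1 probe A_51_P449777 log2 ratios of 0.92, -0.73, -0.50 and 0.75 for replicates 1 to 4, with a sign that followed the dye orientation. For the Pmepa1 probe A_51_P134475, which was never saturated, the authors' deposited table gives 0.62, 0.22, 0.41 and 0.88, above 0 in both orientations.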
